A study of Mus musculus with 6 samples.

Results

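The CC and CXC chemokines and their receptors were followed in mouse retinal cells sorted to enrich retinal ganglion cells (RGCs), the output neurons of the retina. Members were the protein-coding genes of the raw count table whose symbol is Ccl, Cxcl, Ccr or Cxcr followed by a digit. They numbered 59 of 55573 genes, 42 ligands and 17 receptors. At 10 or more counts in 2 or more libraries, 39 members were detected, 26 ligands and 13 receptors.

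RNA-Seq libraries came from C57BL/6J mice that had received an adeno-associated virus of serotype 2 in the vitreous body, carrying *GFP* in the control group (AAV2-*GFP*, 3 libraries) or *Ezh2* in the overexpression group (AAV2-*Ezh2*, 3 libraries). *Ezh2* encodes the enzyme of the Polycomb repressive complex PRC2 that methylates histone H3. Both groups had an optic nerve crush 2 weeks after the injection, with the sort 3 days after it, so every library is from an injured retina that carried a virus. The comparison asks how chemokine and receptor transcripts differed with *Ezh2* overexpression after the injury. Per the study's methods, the mice were adults of both sexes, the sort took live cells that bound an antibody to CD90.2 (encoded by *Thy1*), and the virus also enters retinal cells other than RGCs. *Thy1* is also carried by mouse T cells.

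Total counts ranged from 30569933 to 35971192 per library, and a count of 0 allows up to 3 counts, or 0.0834 to 0.0981 CPM (counts scaled to a common library total), which covers counting error only. *Ezh2* ranged from 28.8 to 34.6 CPM in the GFP libraries and from 65.3 to 104.8 CPM in the Ezh2 libraries. The defining RGC genes were scarce: *Pou4f1*, *Pou4f2* and *Pou4f3* stayed below 1 CPM in every library, *Rbpms* ranged from 16.4 to 20.8 CPM, and the 12 RGC markers summed to 143 to 177 CPM. The 8 markers of Muller glia, the main glial cell of the retina, summed to 17700 to 22870 CPM, so the libraries held RNA of other retinal cells. Ezh2 replicate 3 stood apart from the other 5 libraries, and the study left out 1 Ezh2 library, which is inferred here to be this one. The main comparison therefore set the 3 GFP libraries against Ezh2 replicates 1 and 2, and the calls are also given with all 6 libraries.

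Chemokines are small secreted proteins that guide migrating leukocytes along gradients by binding G protein-coupled receptors on their surface. CC ligands such as *Ccl2* and *Ccl5* draw monocytes and T cells into injured tissue. Some CXC ligands draw neutrophils, the interferon-induced ones draw activated T cells, and others, such as the B cell attractant *Cxcl13*, fall in neither class. In the retina after optic nerve injury, microglia, Muller glia and arriving leukocytes are known sources of the ligands, and the receptors sit mostly on leukocytes and microglia.

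Of the 16 ligands not detected, 11 had 0 counts in all 6 libraries. These were *Ccl21a*, *Ccl21b*, *Ccl26* and *Ccl27b*, with 7 copies of *Ccl19*, *Ccl21a*, *Ccl21b*, *Ccl21c* and *Ccl27* that the annotation places on unplaced scaffolds. Because the *Ccl19*, *Ccl21* and *Ccl27* genes have near-identical copies, reads that match several places may have been dropped or split, and their values are uncertain. The other 5 were *Ccl19*, which guides cells to lymph nodes, the Ccr6 ligand *Ccl20*, the neutrophil attractant *Cxcl3*, the lung chemokine *Cxcl15* and the mucosal chemokine *Cxcl17*, each with at most 14 counts in any library. The 4 receptors not detected were the neutrophil receptors *Cxcr1* and *Cxcr2*, the eosinophil receptor *Ccr3* and the Ccr1 relative *Ccr1l1*. *Ccr3* had 29 counts in Ezh2 replicate 2 and at most 9 in the other libraries. *Ccl24*, an eosinophil attractant that binds Ccr3, was detected but too low to test, at 6, 2 and 2 counts in the GFP libraries and 10, 19 and 7 in the Ezh2 libraries. The 38 other members detected were tested, 25 ligands and 13 receptors. *Cxcl11* is annotated as a polymorphic pseudogene and is not a member.

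Levels were compared between genes per exon length (CPM per kilobase of exon, RPKM), as the plot of level per exon length shows. In GFP libraries the highest ligands were *Cxcl16*, a membrane-bound ligand that is shed, at 64.6 ± 0.597 RPKM (SD, n = 3), the T cell and monocyte attractant *Ccl5* at 57.9 ± 7.52 and the monocyte attractant *Ccl12* at 32.5 ± 4.50. The highest receptors were *Cxcr6*, the receptor for Cxcl16 on T cells, at 37.1 ± 4.06 RPKM, *Ccr7*, which takes T cells and dendritic cells to lymph nodes, at 22.5 ± 2.33, and *Cxcr4*, the receptor for Cxcl12, at 21.8 ± 1.73. The pair at the top was thus a known ligand and its receptor. Other known pairs were uneven in level. *Ccr7* stood at 22.5 RPKM in the GFP libraries while its ligands *Ccl19* and *Ccl21a* stood at 0.176 and 0 RPKM. Reads of these ligands may have been dropped or split between near-identical copies, so their levels and this contrast are uncertain. *Ccr6*, the receptor of T helper 17 cells and B cells, stood at 1.32 RPKM beside 0.0153 RPKM of its ligand *Ccl20*. The reverse held for the B cell pair, with the ligand *Cxcl13* at 14.2 RPKM and its receptor *Cxcr5* at 2.41 RPKM, and for the neutrophil ligand *Cxcl1*, at 0.932 RPKM beside 0.0633 RPKM of *Cxcr2*.

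**Figure D1:**
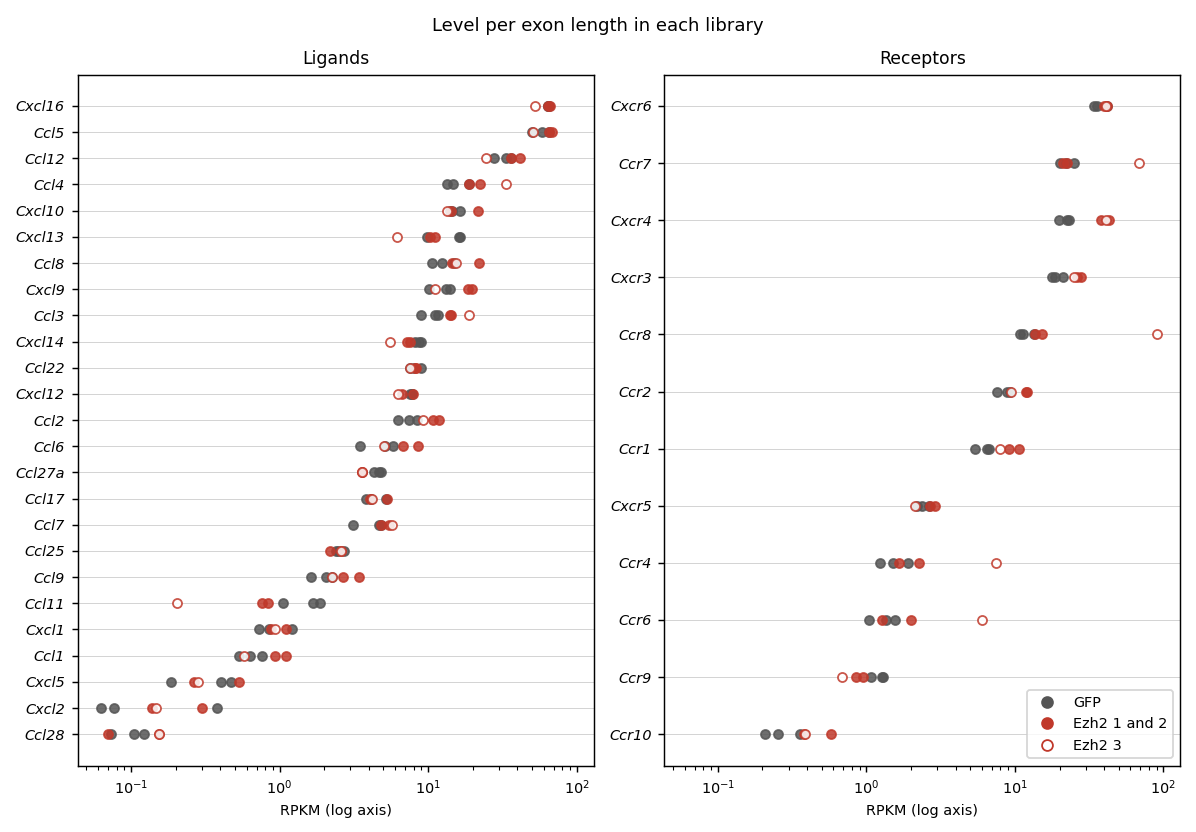
Rows are tested ligands (left) and receptors (right), ordered by its mean in the GFP libraries, and each point is 1 library. The horizontal axis is RPKM on a log scale, with grey points for GFP, filled red for Ezh2 replicates 1 and 2 and open red for Ezh2 replicate 3. *Cxcl16* and *Cxcr6* lie at the top of their panels, and the open points of *Ccr7*, *Ccr8*, *Ccr4* and *Ccr6* lie to the right of all other libraries.

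With Ezh2, 4 of the 25 ligands tested were called higher and 0 lower. These were the myeloid attractants *Ccl2*, *Ccl6* and *Ccl9* and the T cell attractant *Cxcl9*. A gene was called where the edgeR quasi-likelihood test gave an adjusted p below 0.05 (Benjamini-Hochberg over all genes) together with a change of more than 1.5-fold. Of all 20241 genes tested, 3.73% were called, 2.45% higher and 1.27% lower. The median log2 fold change of the 25 ligands was 0.22, beside -0.0078 over all genes. It was 0.126 without GFP replicate 3, 0.144 without Ezh2 replicate 2, 0.342 without Ezh2 replicate 1 and 0.114 with all 6 libraries. In the 5 libraries 19 of 25 had a positive fold change, beside 9867 of the 20241 genes. CPM values of the groups did not overlap for 12 of the 25 ligands, beside 44.9% of all genes. In bulk RNA, more cells of a type and more RNA per cell cannot be told apart, nor can fewer cells and less RNA per cell.

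*Ccl2*, the main attractant of Ccr2-bearing monocytes, had 8.44, 9.61 and 7.13 CPM in GFP replicates 1 to 3, against 12.3 and 13.4 CPM in Ezh2 replicates 1 and 2. All Ezh2 values lay above all GFP values, and Ezh2 replicate 3 also did, at 10.6 CPM. The means were 8.39 ± 1.24 (SD, n = 3) and 12.9 ± 0.769 CPM (SD, n = 2). In edgeR this gave a log2 fold change of 0.63 ± 0.14 (SE) and an adjusted p of 0.00447.

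*Ccl6* and *Ccl9*, neighbouring genes on chromosome 11 whose products bind Ccr1 and attract myeloid cells, moved alike. *Ccl6* was at 10.4, 9.19 and 6.21 CPM in the GFP libraries and at 12.2 and 15.3 CPM in Ezh2 replicates 1 and 2, a log2 fold change of 0.69 ± 0.17 (adjusted p = 0.0115 in edgeR). *Ccl9* was at 6.84, 6.26 and 4.95 CPM in the GFP libraries and at 8.17 and 10.4 CPM in Ezh2 replicates 1 and 2, a log2 fold change of 0.64 ± 0.17 (adjusted p = 0.0155 in edgeR). For both genes GFP replicate 3 was lowest and Ezh2 replicate 2 highest, with no overlap between the groups. Ezh2 replicate 3 fell within the GFP range for *Ccl6*, at 9.09 CPM, and at its upper edge for *Ccl9*, at 6.84 CPM.

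*Cxcl9*, an interferon gamma-induced ligand that draws Cxcr3-bearing T cells, was the most abundant of the 4 in CPM. It reached 39.8, 42.6 and 30.4 CPM in the GFP libraries and 59.6 and 55.9 CPM in Ezh2 replicates 1 and 2. The groups did not overlap, but Ezh2 replicate 3 lay inside the GFP range at 33.8 CPM. The log2 fold change was 0.63 ± 0.10 (adjusted p = 0.000512 in edgeR). *Cxcl10*, its neighbour on chromosome 5 and another Cxcr3 ligand, did not pass, at 32.5, 37.2 and 31.6 CPM against 32.3 and 48.6 CPM (log2 fold change 0.28 ± 0.13, adjusted p = 0.170 in edgeR). Its groups overlapped, and only Ezh2 replicate 2 lay above all GFP libraries. The exons of *Cxcl10* overlap those of *Art3* on the other strand, so its level and its contrast with *Cxcl9* are uncertain.

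**Figure D2:**
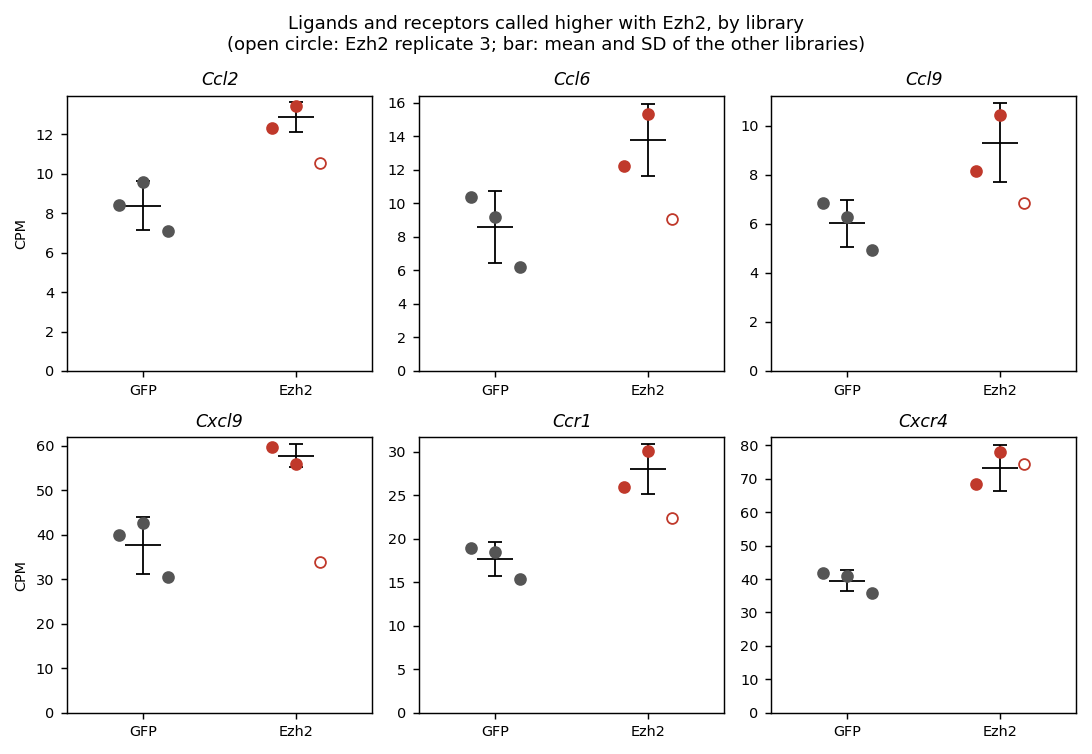
Each panel plots 1 called member in CPM, with 1 point per library, grey for GFP and red for Ezh2. Bars give the mean and SD of the GFP libraries (n = 3) and of Ezh2 replicates 1 and 2 (n = 2), and the open circle is Ezh2 replicate 3. The open circle of *Cxcl9* lies at 33.8 CPM among the GFP points, whereas that of *Cxcr4* lies at 74.4 CPM among the Ezh2 points.

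The ligand calls depended on single libraries. With all 6 libraries, 0 of 24 ligands tested were called in edgeR, beside 2.41% of all 19732 genes (1.60% called higher), and 10 ligands had an unadjusted p under 0.05. The log2 fold changes of *Ccl2*, *Ccl6*, *Ccl9* and *Cxcl9* were then 0.57, 0.54, 0.53 and 0.43. Without GFP replicate 3, none of the 4 was past the fold change of 1.5 and 1 ligand was called, the B cell attractant *Cxcl13*, lower. Without Ezh2 replicate 2, with the lone Ezh2 library assumed to vary like the others, *Cxcl9* alone was called. GFP replicate 3 was the lowest of the 5 libraries for 16 of the 25 ligands. The share of all genes for which it was lowest was not computed, so this count has no background beside it. The calls lay close to the threshold, since the fold changes just inside it were 1.55 for *Ccl2* and *Cxcl9*. The fold change just outside it was 1.46 for *Ccl8*, a Ccr8 ligand with an adjusted p of 0.0602 in edgeR.

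Among the 10 CC ligands of inflammation, all tested, 3 were called higher, 0 lower, and the median log2 fold change was 0.42. *Ccl3*, a ligand of Ccr1 made by activated macrophages and T cells, had an adjusted p of 0.0457 in edgeR below the fold threshold (log2 fold change 0.43 ± 0.14), and one of 0.0918 with all 6 libraries. *Ccl3* was at 8.47, 9.004 and 6.83 CPM in the GFP libraries, at 10.9 and 10.8 CPM in Ezh2 replicates 1 and 2 and at 14.5 CPM in Ezh2 replicate 3. Its neighbour *Ccl4*, a closely related ligand, had a log2 fold change of 0.41 ± 0.14 and reached 22.0 CPM in Ezh2 replicate 3, against 8.83 to 14.9 CPM elsewhere. Both ligands were thus highest in the library left out of the main comparison.

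The abundant *Ccl5* was at 55.9, 62.6 and 48.2 CPM in the GFP libraries, at 65.4 and 63.1 CPM in Ezh2 replicates 1 and 2 and at 49.0 CPM in Ezh2 replicate 3. Its groups did not overlap in the 5 libraries, but the difference was small (log2 fold change 0.22 ± 0.09, adjusted p = 0.0988 in edgeR) and Ezh2 replicate 3 was within the GFP range. *Ccl12* overlapped between the groups, at 14.8, 19.6 and 18.0 CPM against 19.3 and 22.3 CPM, with 13.1 CPM in Ezh2 replicate 3. *Ccl7*, a ligand of Ccr2, had a log2 fold change of 0.31 ± 0.23. The eosinophil attractant *Ccl11* had the only negative fold change of these 10, at 2.03, 1.83 and 1.14 CPM against 0.901 and 0.828 CPM (log2 fold change -0.93 ± 0.36, adjusted p = 0.0961 in edgeR), and it was at 0.222 CPM in Ezh2 replicate 3.

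None of the 6 tested CC ligands of lymphoid tissue, barriers and type 2 responses was called by edgeR, and 2 had an unadjusted p under 0.05. Their median log2 fold change was 0.07. They were *Ccl1*, a Ccr8 ligand (0.66 ± 0.29), *Ccl28*, a mucosal ligand (0.18 ± 0.55), the Ccr4 ligands *Ccl17* (0.11 ± 0.27) and *Ccl22* (0.02 ± 0.10), the Ccr9 ligand *Ccl25* (-0.07 ± 0.10) and the skin ligand *Ccl27a* (-0.34 ± 0.12). *Ccl22*, at 17.6 to 20.98 CPM in the GFP libraries, was at 19.1 and 19.4 CPM in Ezh2 replicates 1 and 2, so any difference was smaller than the spread of the GFP libraries. The exons of *Ccl25* overlap those of *Elavl1*, and those of *Ccl27a* overlap those of *Il11ra1*, on the other strand, and use of strand in the counting is not known, so reads of these pairs cannot be told apart.

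The CXC ligands that attract neutrophils were near the limit of detection. *Cxcl1*, *Cxcl2* and *Cxcl5* were tested, 0 were called in edgeR and 0 had an unadjusted p under 0.05. *Cxcl1* was the highest of them at 1.37 to 2.27 CPM in every library. Of the 6 neutrophil markers listed, *S100a8*, *S100a9*, *Ly6g*, *Retnlg* and *Mmp9* also stayed below 1 CPM in every library, as *Cxcr1* and *Cxcr2* did. The other marker, *Csf3r*, the receptor for granulocyte colony-stimulating factor, was at 56.3 to 59.5 CPM in the GFP libraries, 74.3 and 79.7 CPM in Ezh2 replicates 1 and 2 and 52.7 CPM in Ezh2 replicate 3. Its log2 fold change was 0.42 ± 0.06 in the 5 libraries (adjusted p = 0.000255) and 0.28 ± 0.13 in all 6 (adjusted p = 0.215), both in edgeR and under the fold threshold.

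Of the other CXC ligands, 4 were tested and 0 were called by edgeR, with 1 at an unadjusted p under 0.05. *Cxcl16* was flat at 194.2, 197.1 and 193.7 CPM in the GFP libraries and 194.6 and 201.5 CPM in Ezh2 replicates 1 and 2 (log2 fold change 0.03 ± 0.05), while Ezh2 replicate 3 was lower at 159.1 CPM. Its exons overlap those of *Zmynd15* on the other strand. *Cxcl12*, which binds Cxcr4, had a log2 fold change of -0.07 ± 0.08, *Cxcl14*, a chemokine of epithelia and neurons, -0.20 ± 0.10, and *Cxcl13* -0.39 ± 0.17. For *Cxcl13* the GFP libraries themselves were spread, at 18.8, 18.6 and 11.4 CPM, around the 12.7 and 11.9 CPM of Ezh2 replicates 1 and 2.

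Among receptors, 2 of 13 tested were called higher in edgeR, *Cxcr4* and *Ccr1*, and 0 lower, beside 2.45% and 1.27% of all genes tested. The median log2 fold change of the 13 was 0.34, beside -0.0078 over all genes, and 11 of 13 had a positive fold change. The groups did not overlap for 9 of 13, beside 44.9% of all genes. The same 2 receptors were called with all 6 libraries, where the median log2 fold change was 0.61 beside 0.0083 over all genes. Whether receptors and ligands differed in their response was not tested.

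*Cxcr4*, the receptor for Cxcl12 on leukocytes and on some neurons, had the largest fold change of the called members. It stood at 41.7, 40.8 and 35.9 CPM in the GFP libraries, at 68.4 and 78.2 CPM in Ezh2 replicates 1 and 2 and at 74.4 CPM in Ezh2 replicate 3. Every Ezh2 library lay above every GFP library. The means were 39.5 ± 3.12 (SD, n = 3) and 73.3 ± 6.91 CPM (SD, n = 2), with a log2 fold change of 0.90 ± 0.08 (SE) and an adjusted p of 1.41e-06 in edgeR. With all 6 libraries the log2 fold change was 0.94 ± 0.10 (adjusted p = 0.00306 in edgeR). Its ligand *Cxcl12* was not called, at 61.8, 63.3 and 63.8 CPM against 54.2, 64.8 and 51.0 CPM.

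*Ccr1*, a receptor of monocytes, macrophages and neutrophils for Ccl3, Ccl5, Ccl6 and Ccl9, was at 19.0, 18.5 and 15.4 CPM in the GFP libraries and at 26.0, 30.0 and 22.4 CPM in Ezh2 replicates 1 to 3. The groups did not overlap, also with Ezh2 replicate 3. The log2 fold change was 0.68 ± 0.10 in the 5 libraries (adjusted p = 0.000279) and 0.61 ± 0.13 in all 6 (adjusted p = 0.0392), both in edgeR. Without Ezh2 replicate 2 it was 0.56, below the fold threshold.

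Other receptors had an adjusted p under 0.05 in edgeR with a fold change under 1.5. An adjusted p under 0.05, called or not, was reached by 16.5% of all genes tested. *Ccr2*, the receptor for Ccl2 on inflammatory monocytes, was at 62.5, 59.7 and 51.0 CPM in the GFP libraries, at 79.8 and 81.3 CPM in Ezh2 replicates 1 and 2 and at 63.7 CPM in Ezh2 replicate 3 (log2 fold change 0.49 ± 0.08, adjusted p = 0.000310 in 5 and 0.0699 in all 6 libraries). All Ezh2 values of *Ccr2* lay above all GFP values, with Ezh2 replicate 3 just above the highest. *Cxcr3*, the receptor for Cxcl9 and Cxcl10 on effector T cells, was at 31.0, 36.7 and 32.1 CPM against 48.5, 45.1 and 43.5 CPM in Ezh2 replicates 1 to 3 (log2 fold change 0.50 ± 0.08, adjusted p = 0.000429 in 5 and 0.0239 in all 6 libraries). *Ccr9*, a homing receptor of gut T cells, was lower at this level, at 13.2, 10.99 and 13.01 CPM against 9.69, 8.73 and 7.03 CPM (log2 fold change -0.42 ± 0.13, adjusted p = 0.0310 in 5 and 0.0863 in all 6 libraries). The exons of *Ccr9* overlap other genes on the opposite and on the same strand, so its reads are uncertain.

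**Figure D3:**
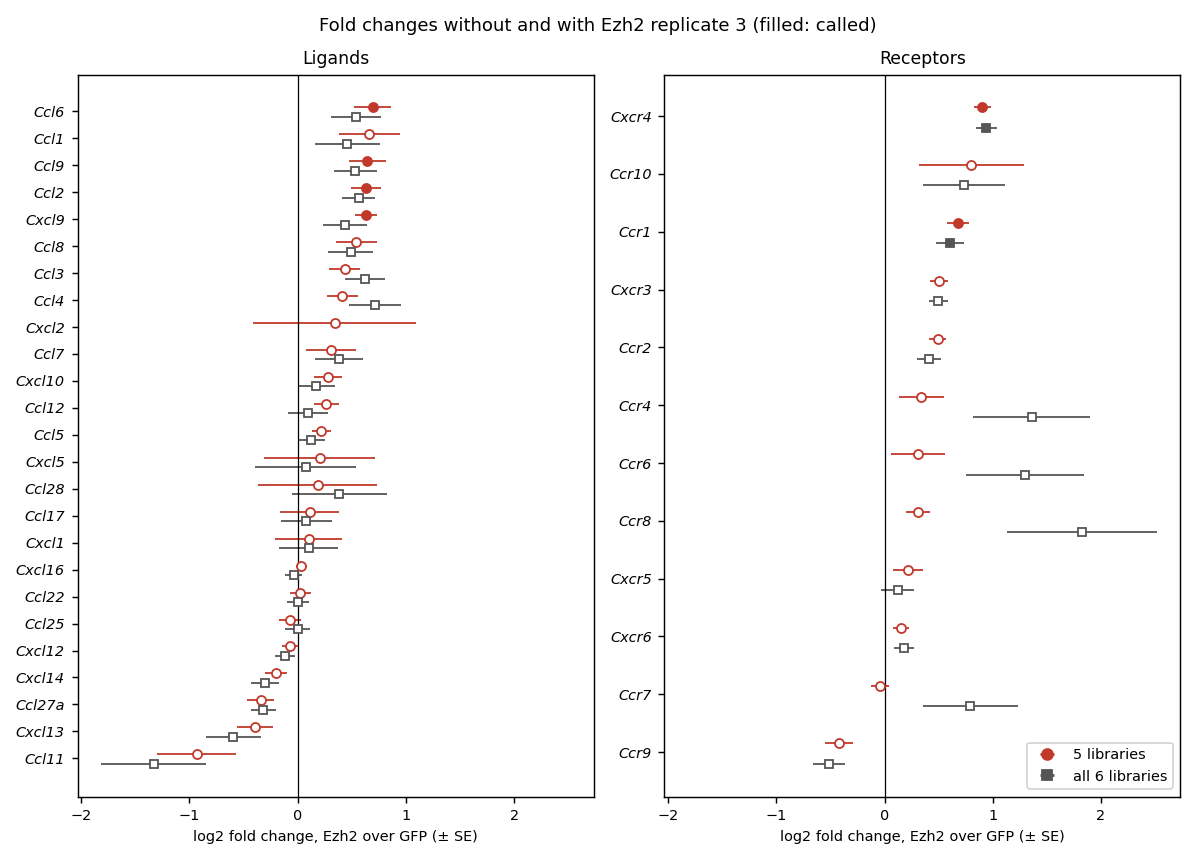
Points give the log2 fold change of Ezh2 over GFP with its SE for tested ligands (left) and receptors (right), red circles for the 5 libraries and grey squares for all 6. Filled symbols were called. *Cxcl2* was too low to be tested with all 6 libraries and has no square. The squares of *Ccr4*, *Ccr6*, *Ccr7* and *Ccr8* lie far to the right of their circles, with wide errors.

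The 9 receptors found chiefly on lymphocytes held 0 called members in the 5 libraries by edgeR, with 3 at an unadjusted p under 0.05, and a median log2 fold change of 0.31. *Cxcr6* was flat, at 80.5, 69.0 and 65.5 CPM against 81.1, 76.8 and 78.8 CPM (log2 fold change 0.15 ± 0.08, adjusted p = 0.208 in edgeR), and so lay within the spread of the GFP libraries in 2 of 3 Ezh2 libraries. *Cxcr5*, the B cell receptor for Cxcl13, had a log2 fold change of 0.22 ± 0.14, and *Ccr10*, a receptor of skin-homing T cells and plasma cells, one of 0.80 ± 0.48 at under 1 CPM. The exons of *Cxcr5* overlap those of *Bcl9l* on the other strand.

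Ezh2 replicate 3 differed from all other libraries in 4 of these receptors. *Ccr8*, a receptor of regulatory and type 2 helper T cells, was at 106.4 CPM there and at 12.7 to 18.0 CPM in the other 5 libraries. *Ccr7* was at 135.8 CPM against 40.1 to 49.3 CPM, *Ccr4*, a receptor of type 2 helper and regulatory T cells, at 23.3 against 3.83 to 6.99 CPM, and *Ccr6* at 14.0 against 2.42 to 4.63 CPM. None of them was called in either comparison in edgeR, where with all 6 libraries *Ccr8* had a log2 fold change of 1.82 ± 0.69 (adjusted p = 0.153). The 4 receptors summed to 279.6 CPM in Ezh2 replicate 3 and to 61.8 to 74.2 CPM elsewhere. The other 13 receptors summed to 359.9 CPM in Ezh2 replicate 3, between the 273.7 to 318.4 CPM of the GFP libraries and the 399.3 and 406.1 CPM of Ezh2 replicates 1 and 2.

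Markers of regulatory T cells moved with these 4 receptors. All 8 such genes listed were highest in Ezh2 replicate 3, with a sum of 1736 CPM there and 287 to 347 CPM elsewhere. *Foxp3*, the factor that defines these cells, was at 92.4 CPM there and at 9.02 to 11.5 CPM elsewhere, and *Il2ra*, the high-affinity interleukin 2 receptor chain, at 442 against 29.8 to 44.8 CPM. The list was known from earlier results to be high in this library, and its part in the receptor levels was not tested.

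**Figure D4:**
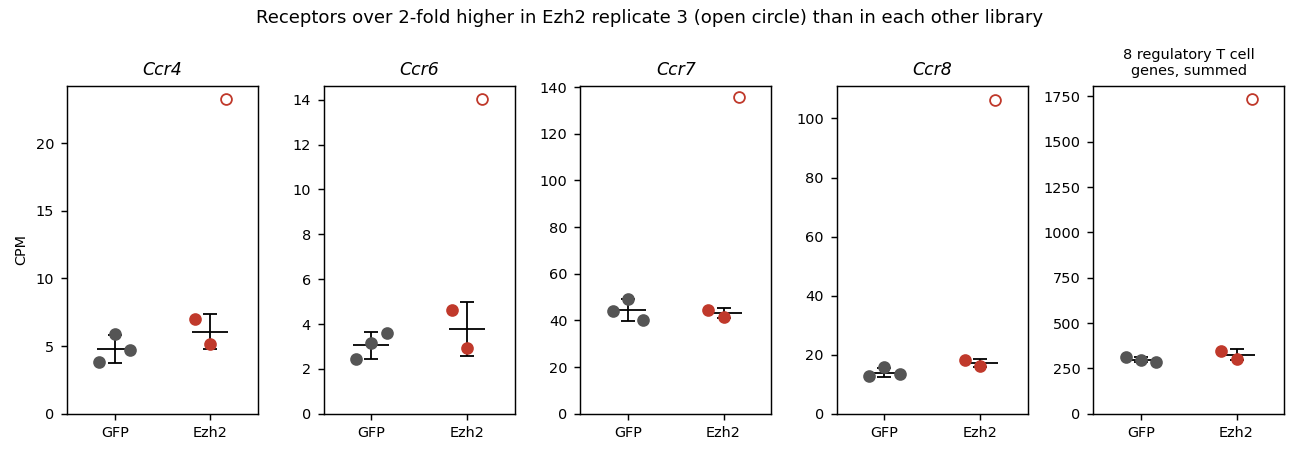
The first 4 panels plot *Ccr4*, *Ccr6*, *Ccr7* and *Ccr8* in CPM with 1 point per library, and the last plots the summed CPM of 8 regulatory T cell genes. Bars give the mean and SD of the GFP libraries (n = 3) and of Ezh2 replicates 1 and 2 (n = 2). The open circle, Ezh2 replicate 3, lies above every other library in each panel, at 1736 CPM for the sum.

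Markers of other leukocytes were read in the same 5 libraries, where 2.45% of all genes tested were called higher and 1.27% lower. Most macrophage markers were called higher, unlike most markers of the other leukocytes. Of 9 macrophage markers tested, 6 were called higher and 0 lower in edgeR, and the 10 listed summed to 1046 to 1159 CPM in the GFP libraries, 2527 and 3066 CPM in Ezh2 replicates 1 and 2 and 2103 CPM in Ezh2 replicate 3. *Lyz2*, a lysozyme gene of macrophages and monocytes, made up much of the rise in this sum. Its means were 361 CPM with GFP and 1637 CPM in Ezh2 replicates 1 and 2, a log2 fold change of 2.19 ± 0.09. *Stab1*, a scavenger receptor gene of macrophages and sinusoidal vessels, had one of 1.94 ± 0.07, the mannose receptor gene *Mrc1* one of 0.66 ± 0.12 and the coagulation factor gene *F13a1* one of 2.57 ± 0.20. *Cd163* and *Lyve1* were the lowest of the list, at 0 to 0.389 and 0.278 to 1.14 CPM. Of the tested markers, *Csf1r* (0.26 ± 0.05), *Adgre1* (0.57 ± 0.07) and *Lyve1* (-0.67 ± 0.45) were not called, and *Cd163* was too low to test. The same 6 macrophage markers were called with all 6 libraries. For microglia, 1 of 8 markers was called higher (*Fcrls*) and 1 lower (*Sall1*), with sums of 644 to 721 CPM in the GFP libraries, 767 and 847 CPM in Ezh2 replicates 1 and 2 and 553 CPM in Ezh2 replicate 3. Of 6 monocyte markers, 2 were called higher in the 5 libraries and 1 with all 6, and the sums were 265 to 276 CPM in the GFP libraries and 326 to 360 CPM in the Ezh2 libraries. T cell markers, 2 of 14 called higher (*Cd8a* and *Cd8b1*), summed to 595 to 637 CPM in the GFP libraries, 774 and 810 CPM in Ezh2 replicates 1 and 2 and 1361 CPM in Ezh2 replicate 3. Of these 14, 13 were higher at an adjusted p under 0.05 in edgeR, most of them below the fold threshold, beside 16.5% of all genes in either direction. With all 6 libraries 3 were higher at this level. Of 10 B and plasma cell markers, 0 were called in edgeR. They summed to 2768 to 2893 CPM in the GFP libraries, 3391 and 3220 CPM in Ezh2 replicates 1 and 2 and 2152 CPM in Ezh2 replicate 3. The macrophage and T cell sums were higher in all 3 Ezh2 libraries than in the GFP libraries, as were the called *Ccl2*, *Ccr1* and *Cxcr4*. In Ezh2 replicate 3 the called *Ccl6* and *Cxcl9* lay within the GFP range and *Ccl9* at its upper edge. The part of these cells in the results was not tested.

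Other genes of the pathway were described from lists. Among family genes outside the symbol rule, 2 of 10 tested were called higher and 1 lower in edgeR. *Pf4*, a platelet and macrophage chemokine, was at 0.131, 0.474 and 0.228 CPM in the GFP libraries and at 1.68, 1.94 and 2.28 CPM in Ezh2 replicates 1 to 3 (log2 fold change 2.69 ± 0.47, adjusted p = 0.000847), so every Ezh2 library was higher at a low level. *Cmklr1*, the chemerin receptor of macrophages, was called higher (0.66 ± 0.08) in the 5 libraries but fell below the fold threshold in all 6 (0.55 ± 0.12), and *Ackr1*, an atypical receptor of venules and red blood cells that binds chemokines without signalling, was called lower (-0.82 ± 0.21). *Pf4* and *Ackr1* were also called with all 6 libraries. Of 28 genes that signal from or regulate chemokine receptors, 1 was called higher, *Pik3r5*, the regulatory subunit of a phosphoinositide 3-kinase activated by G proteins (0.68 ± 0.07), and 0 lower, with a median of 0.29. With no fold threshold, 17 of the 28 were higher and 1 lower at an adjusted p under 0.05 in edgeR, beside 16.5% of all genes. With all 6 libraries 5 were higher at this level, of which 3 were called, *Pik3cd*, *Pik3r5* and *Vav1*. Of 22 tested genes that switch chemokine genes on or hold them in check, 2 were called higher, the T cell cytokines *Ifng* (0.69 ± 0.21) and *Lta* (0.82 ± 0.20), and 0 lower, with a median of 0.18. With no fold threshold, 9 of the 22 were higher and 3 lower at an adjusted p under 0.05 in edgeR. With all 6 libraries 0 of the 22 were called in edgeR, where *Ifng* had an adjusted p of 0.0794 and *Lta* one of 0.0698, and 15 had an unadjusted p under 0.05. *Ifng* is a known inducer of *Cxcl9*. Its levels were 2.88, 3.95 and 2.96 CPM in the GFP libraries and 5.78, 4.68 and 9.17 CPM in the Ezh2 libraries. Both genes were called higher in the 5 libraries, while Ezh2 replicate 3 had the highest *Ifng* and the lowest *Cxcl9* of the Ezh2 libraries. A link between the 2 genes was not tested.

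The genes lie in clusters, and cluster neighbours did not all move alike. On chromosome 11 (GRCm38) the group from 83525778 to 83664683 holds *Ccl5*, *Ccl9*, *Ccl6*, *Ccl3* and *Ccl4*, of which 2 were called, with log2 fold changes from 0.22 to 0.69. The group from 82035571 to 82305690 holds *Ccl2*, *Ccl7*, *Ccl11*, *Ccl12*, *Ccl8* and *Ccl1*, of which 1 was called, with log2 fold changes from -0.93 to 0.66. On chromosome 9, *Ccr1* was called between *Ccr9* and *Ccr2*, which were not. *Cxcr4* lies alone on chromosome 1, from 128588199 to 128592293.

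Promoters were read for 38 members with an entry in the RefSeq promoter table (GRCm38.p6), over the 250 bases before the start of each gene. They are shown for *Cxcl9* and *Cxcl10*, neighbours of which the first was called, and for *Ccl9* and *Ccr1*, a called ligand and its called receptor. Capitals mark letters that match the core of an interferon-stimulated response element (ISRE, GAAANNGAA), a gamma-activated site (GAS, TTCNNNGAA), an AP-1 site (TGANTCA) or the NF-kB consensus, searched on both strands.
Cxcl9 (chr5:92328080-92328329, minus strand): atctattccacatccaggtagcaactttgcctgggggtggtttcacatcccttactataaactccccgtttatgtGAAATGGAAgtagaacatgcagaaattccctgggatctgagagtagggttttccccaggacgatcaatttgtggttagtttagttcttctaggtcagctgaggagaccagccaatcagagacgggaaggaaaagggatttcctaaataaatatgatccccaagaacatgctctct
Cxcl10 (chr5:92348890-92349139, minus strand): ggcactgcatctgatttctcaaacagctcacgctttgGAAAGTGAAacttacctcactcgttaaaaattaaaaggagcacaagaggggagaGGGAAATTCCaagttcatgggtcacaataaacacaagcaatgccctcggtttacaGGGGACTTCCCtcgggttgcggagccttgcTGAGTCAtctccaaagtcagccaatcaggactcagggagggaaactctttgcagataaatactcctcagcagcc
Ccl9 (chr11:83578637-83578886, minus strand): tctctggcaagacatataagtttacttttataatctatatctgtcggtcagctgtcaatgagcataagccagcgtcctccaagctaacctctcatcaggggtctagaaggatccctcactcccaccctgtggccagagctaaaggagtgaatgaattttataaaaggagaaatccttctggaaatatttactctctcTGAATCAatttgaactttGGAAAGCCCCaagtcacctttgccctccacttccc
Ccr1 (chr9:123968693-123968942, minus strand): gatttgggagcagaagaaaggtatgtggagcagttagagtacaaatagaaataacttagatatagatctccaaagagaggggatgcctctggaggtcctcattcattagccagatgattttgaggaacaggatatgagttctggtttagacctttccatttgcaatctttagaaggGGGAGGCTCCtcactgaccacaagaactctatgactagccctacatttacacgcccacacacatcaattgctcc

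In these windows *Cxcl10* held an ISRE match from 213 to 205 bases before the start, an NF-kB match from 159 to 150, a pair of overlapping NF-kB matches from 104 to 94 and an AP-1 match from 74 to 68. *Ccl9* held an AP-1 match from 53 to 47 and an NF-kB match from 35 to 26, and *Ccr1* held an NF-kB match from 74 to 65. *Cxcl9*, which was called while *Cxcl10* was not, held 1 ISRE match, from 175 to 167 bases before the start. NF-kB letters were in 9 of the 38 members' windows and in 7.01% of the 27018 promoters in the table, ISRE letters in 8 and 7.16%, GAS letters in 4 and 7.18% and AP-1 letters in 4 and 6.87%. A match of letters is a description and not a site shown to be bound. *Ccl2* has no entry in the table. Of the 5 called members with an entry, NF-kB letters were in 2, ISRE letters in 1, AP-1 letters in 1 and GAS letters in 0. The called *Ccl6* and *Cxcr4* held none of these letters in their windows.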

How the data were processed

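The authors deposited raw read counts per Ensembl gene for 6 stranded total RNA libraries. Per the labels, the submitters used STAR 2.7.0d and GRCm38. The counting program, annotation release and strand setting were not given in the sources used here. Of 55573 gene identifiers, 55480 matched GENCODE M21, which gave symbols, biotypes, exon lengths and coordinates.

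The counts of all genes went through the filterByExpr filter, TMM scaling and the two-sided quasi-likelihood test in edgeR 4.0.16 (R 4.3.3), with Benjamini-Hochberg adjustment. Calls needed an adjusted p below 0.05 and more than a 1.5-fold change. CPM used library totals and RPKM the summed exon length. Nothing says whether libraries came from separate animals, so p-values measure the spread between these libraries.

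Members, gene lists and alternatives were chosen with earlier results of these data known. Full statistics are given for called members, and values by library also for the 3 highest ligands and receptors per length, members with an adjusted p under 0.05 and receptors high in Ezh2 replicate 3. Pathway genes are named where called. Counts and medians cover all members, but 1 receptor is not reported here by itself. Other genes and values, and the motif letters, were chosen after they were seen. DESeq2 1.42.0, limma-voom (limma 3.58.1), other scalings, filters and libraries were alternatives. Pictures used matplotlib 3.10.9.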

Additional observations from a re-analysis of the deposited data

Results flagged for a closer look

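In Ezh2 replicate 3, the library outside the main comparison, 4 receptors had at least 100 counts and a CPM more than 2 times that of each other library, the controls included. *Ccr4* was at 23.3 CPM, *Ccr6* at 14.0 CPM, *Ccr7* at 135.8 CPM and *Ccr8* at 106.4 CPM. Against the mean of Ezh2 replicates 1 and 2 these were 3.84, 3.71, 3.16 and 6.23 times as high. No ligand met this rule. These receptors have no replicate at that level, since 1 library shows it.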

How the results depend on the processing

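The 4 ligand and 2 receptor calls were kept, gene for gene, under DESeq2, limma-voom, RLE scaling, scaling by totals, no filter, a filter at 10 counts in 2 libraries and a robust dispersion, which was chosen after seeing the data. With all 6 libraries 0 ligands were called and the receptor median log2 fold change was 0.61. With each library left out in turn, 1 to 5 ligands and 1 to 2 receptors were called. With no fold threshold, 6 receptors passed. The sign changed with all 6 libraries for *Ccr7* (0.80) and *Cxcl16* (-0.039). With single libraries left out, log2 fold changes ranged from -0.034 to 0.59 for *Ccr6*, -0.11 to 0.041 for *Ccr7* and -0.005 to 0.072 for *Cxcl16*. These 3 were not called under any alternative, and the cause was not tested. The replicate number was tried as a block, although same-numbered libraries did not deviate together (correlations of -0.0045, -0.020 and -0.0099). With the block, 1 ligand was called (*Cxcl13*, lower), because GFP replicate 3 has no partner in the 5 libraries and drops out. With the block in all 6 libraries, 0 ligands and 1 receptor (*Cxcr4*) were called, the receptor median was 0.54, and *Ccr7* and *Cxcl16* were at 0.54 and -0.043. With 2 or 3 libraries a group, single libraries decide fold changes this close to the threshold, and members at a few counts per library, such as *Cxcl2* and *Ccr10*, had SEs too wide to show changes of the size seen.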

Other observations

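Some genes of the list that switches chemokine genes on or holds them in check were also high in Ezh2 replicate 3. Of 22 tested, 14 were higher there than in each of the other 5 libraries, as were 24.8% of all genes tested, and 6 were below both other Ezh2 libraries, as were 50.9% of all genes. *Csf2*, the granulocyte-macrophage growth factor made by activated T cells, was at 8.76 CPM against 0.0976 to 0.458 CPM. *Rel*, an NF-kB subunit of lymphocytes, was at 109.1 against 27.7 to 32.9 CPM, and *Nfkb1* at 384.3 against 164.6 to 201.8 CPM. *Irf7*, an interferon regulatory factor, was at 87.0 CPM there against 110.1 to 131.9 CPM elsewhere. In the same library 15 of the 25 ligands tested were below both other Ezh2 libraries and 4 were above all other libraries, namely *Ccl3*, *Ccl4*, *Ccl7* and *Ccl28*.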
